A study of Mus musculus with 6 samples.

Results

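The 10 genes described here encode factors that mast cells and basophils secrete. They are the interleukins Il3, Il4, Il6 and Il13, the growth factor gene Csf2, the chemokines Ccl3 and Ccl4, and Tnf, Tgfb1 and Osm. They were taken by symbol, as a list, from a deposited RNA-seq table of 55401 mouse Ensembl genes, and each matched 1 entry. The libraries came from a culture line that the labels call female germline stem cells (FGSCs), of strain C57BL/6 and past passage 20, grown on STO mouse fibroblast feeders in medium with leukemia inhibitory factor, EGF, bFGF and GDNF. The control group had 3 untreated libraries. The metformin group had 3 libraries from FGSCs given 1 μM metformin, a biguanide drug used against diabetes, for 24 h. The study's methods state in general that experiments were repeated, but neither they nor the labels say that the 3 libraries of a group came from separate cultures, so p-values measure the spread between these libraries, which may be technical.

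Mast cells and basophils are blood cells that carry the IgE receptor. When this receptor is crosslinked, they release stored granules at once and transcribe cytokine genes over the following hours. Il4 and Il13 drive type 2 immunity, Il3 and Csf2 support the growth and survival of myeloid cells, Ccl3 and Ccl4 attract leukocytes, Tnf and Il6 are inflammatory cytokines, Osm belongs to the cytokine family of Il6, and Tgfb1 is a broadly expressed growth factor stored in a latent form. Many of these transcripts are short-lived and are made after stimulation of the cell, with NFAT, AP-1 and NF-kB acting on their promoters. GATA factors act at the Il4 and Il13 genes in mast cells and basophils.

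The label of the cells was compared with marker genes. Of 8 germ cell markers, none reached a mean of 1 FPKM, the unit of the table (fragments scaled by gene length and by the depth of the library), and their summed level was 0.48 to 1.44 FPKM in the control group and 0.33 to 0.93 in the metformin group. Pou5f1, Dppa3, Dazl and Nanos3 were listed at 0 in all 6 libraries, and Ddx4 had a mean of 0.0233 FPKM. Of 14 mast cell markers, 4 passed 1 FPKM, namely Cpa3, a granule protease, at 352, Kit, the receptor of stem cell factor, at 118, Slc18a2, an amine transporter of granules, at 28.0, and Fcer1g, a signalling chain of the IgE receptor, at 21.9 FPKM on average. The defining markers Fcer1a, Tpsb2, Tpsab1, Mcpt4 and Mrgprb2 were listed at 0. Of 8 macrophage markers, Adgre1 and Cd68 had means of 58.3 and 6.16 FPKM, while Csf1r had a mean of 0.0117. The markers of basophils, eosinophils, neutrophils, T cells, B cells, fibroblast feeders and ovarian granulosa cells all had means under 1 FPKM. Thus the RNA levels in these libraries went against the germ cell label, and the libraries are called by it only as a name. The highest germ cell marker was Ifitm3, with a mean of 0.662 FPKM. By RT-PCR, the study reported expression of Pou5f1, Ddx4, Dppa3, Ifitm3, Dazl and Prdm1 in its FGSCs. It also reported DDX4 protein by immunofluorescence. The summed mast cell markers were 524 to 556 FPKM in the control group and 499 to 516 in the metformin group. Most of this sum was Cpa3, with means of 366 FPKM in the control group and 338 in the metformin group. Kit had a mean of 118 FPKM in both groups, Slc18a2 28.0 in both, and Fcer1g 22.16 and 21.65. The part of these markers in the results below was not tested.

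Depth, estimated from the smallest steps in the values of short genes with a single exon, was 13.4 M to 14.0 M mapped fragments (M, mega) in a library. On 1 kb of exon, 1 fragment was worth 0.0713 to 0.0746 FPKM. With exon lengths from GENCODE M1, the values of Il4, Il13, Tnf, Csf2, Ccl3 and Ccl4 came out within 0.11 of a whole number of fragments in every library, so that the fragments behind each value could be given. Those of Il6, Osm and Tgfb1 did not, and are given as estimates. A value under 3 fragments in a library was not told apart from 0. Such limits and the counting errors below cover counting only.

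Because 7 of the 10 genes lie on chromosome 11 and 4 of these in a single interleukin cluster, the stretch before the start of transcription is shown for the cluster genes Il4, Il13 and Il3, and for Tnf, which lies on chromosome 17. RefSeq promoter windows of GRCm38.p6, from 250 bases before to 50 after a start site, were given for 8 of the 10 genes, 9 windows in all. The 120 bases before the start are printed 5′ to 3′ on the strand of the gene, with letters in capitals where a motif searched on both strands was found. The motifs were TATAAA (the TATA box), GATAA (the GATA core), GGAAA (the NFAT core) and TGANTCA (AP-1). The region is chr11:53618666-53618785 for Il4, chr11:53634703-53634822 for Il13, chr11:54267280-54267399 for Il3 and chr17:35202008-35202127 for Tnf, all on the minus strand.
Il4: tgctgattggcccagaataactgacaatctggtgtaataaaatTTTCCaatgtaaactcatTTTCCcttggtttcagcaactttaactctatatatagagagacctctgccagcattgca
Il13: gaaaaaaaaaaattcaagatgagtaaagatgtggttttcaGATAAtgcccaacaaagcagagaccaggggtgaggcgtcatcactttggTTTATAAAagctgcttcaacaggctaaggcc
Il3: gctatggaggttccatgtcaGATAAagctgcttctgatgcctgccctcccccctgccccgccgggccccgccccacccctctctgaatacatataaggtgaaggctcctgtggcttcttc
Tnf: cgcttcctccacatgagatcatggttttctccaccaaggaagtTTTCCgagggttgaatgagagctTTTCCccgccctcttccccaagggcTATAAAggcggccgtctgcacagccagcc

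In these stretches the Il4 sequence has NFAT cores alone, the Il13 sequence a GATA core and the TATA box on both strands at overlapping positions, the Il3 sequence a GATA core alone, and the Tnf sequence NFAT cores and a TATA box. Over the whole windows, the NFAT core was found in 8 of the 9 windows of these genes and in 61.3% of all 32851 promoter windows. The GATA core was found in 5 of 9 windows against 25.4% of all, the TATA box in 2 of 9 against 13.6%, and AP-1 in 1 of 9, that of Il6, against 7.81%. A match of so few letters is a description of the sequence only. The Tgfb1 window held none of the 4 motifs, and the window of Csf2 starts from a RefSeq site 232 bases upstream of the start in the deposited table. Il4 has another window, counted here but not printed, from a RefSeq site 1331 bases downstream of its start in that table. The only motif in it is an NFAT core just after that site.

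The RNA levels of the 10 genes ranged from among the highest of all genes to none. Over the 6 libraries, mean levels were 81.0 FPKM for Tgfb1, 21.4 for Osm, 11.7 for Il4, 8.43 for Tnf, 8.10 for Il6 and 3.63 for Il13, and these 6 genes passed the filter of a mean of 1 FPKM. The other 4 did not, with 0.212 FPKM for Csf2, 0.158 for Ccl3, 0.075 for Ccl4 and 0 for Il3. Neighbours in this order did not overlap between libraries from Tgfb1 to Il4, between Il4 and Tnf, between Il6 and Il13, or between Il13 and Csf2. Tnf and Il6 overlapped, with Tnf the higher of them in 3 of 6 libraries, and Csf2, Ccl3, Ccl4 and Il3 were not separated from one another. Among all genes with any signal, Tgfb1 stood at percentile 97.2, Osm at 87.8, Il4 at 79.9 and Il13 at 64.5.

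**Figure D1:**
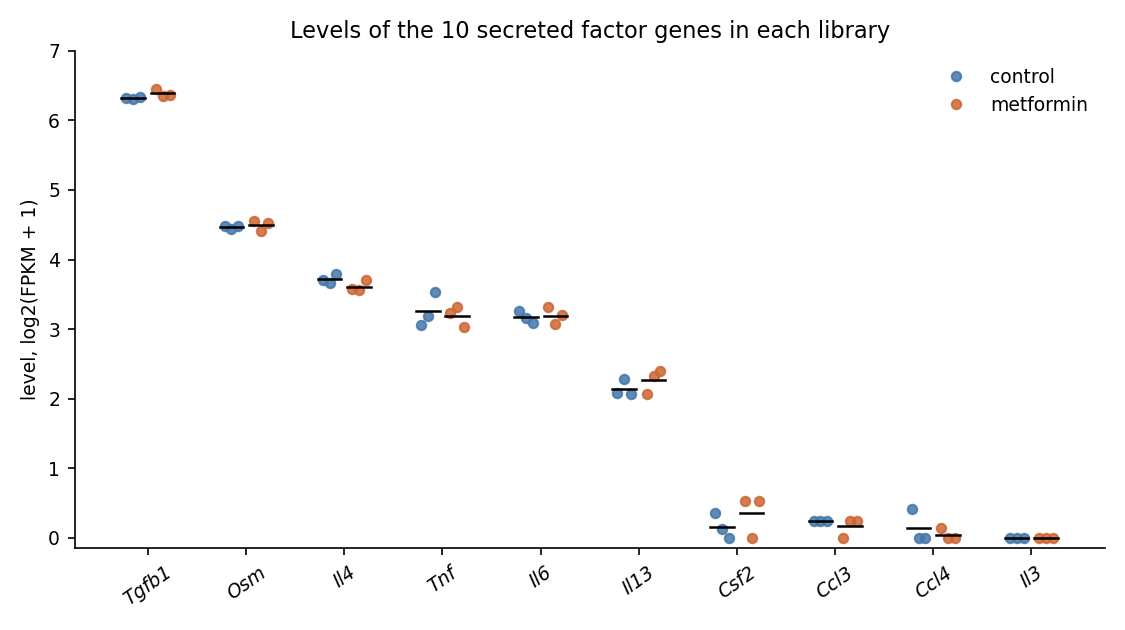
Level of each of the 10 genes, as log2(FPKM + 1), in the 3 control libraries (blue) and 3 metformin libraries (orange), with a black line at the group mean and genes in order of their overall mean. Tgfb1 has the highest points, 6 genes lie clearly above 0, and Csf2, Ccl3, Ccl4 and Il3 lie at or near 0 in both groups.

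Il4, the cytokine that directs B cells to IgE, is at chr11:53602982-53618669 (GRCm38, minus strand). Its level was 12.04, 11.64 and 12.82 FPKM in the control libraries and 10.92, 10.79 and 11.99 FPKM in the metformin libraries. These came from 198, 197 and 220 fragments in the control group and from 188, 185 and 203 in the metformin group. All but 1 of the metformin libraries were below the lowest control library, and the groups overlapped at the third metformin library. The group means were 12.2 ± 0.600 and 11.2 ± 0.659 FPKM (SD, n = 3 each). The difference on the scale of log2(FPKM + 1) was -0.11 (standard error 0.05, adjusted p = 0.513 from limma over all 10661 genes tested).

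Il13, the partner of Il4 in type 2 responses that acts on epithelium and mucus, is at chr11:53631324-53634702 (minus strand), 12654 bases from Il4. It had 3.22, 3.85 and 3.20 FPKM in the control group and 3.19, 4.04 and 4.27 FPKM in the metformin group. The fragments numbered 52, 64 and 54 against 54, 68 and 71. The lowest library was a metformin library and so was the highest, so the groups overlapped. The difference was 0.12 on the log2(FPKM + 1) scale (standard error 0.10, adjusted p = 0.695 from limma). In every library Il4 was above Il13, by FPKM, which is a level per length.

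The genes around Il4 and Il13 were transcribed as well. Kif3a, a motor protein gene, lies 1.0 kb from Il4 and had a mean of 17.8 FPKM. Rad50, a DNA repair gene whose introns are known to hold the control region of the type 2 cytokine genes, had 21.9 FPKM and lies 14.8 kb from Il13. Il5, the eosinophil growth factor of the same cluster, lies beyond Rad50 and had a mean of 0.0383 FPKM. Neither Kif3a nor Rad50 passed the test with metformin, with differences of 0.04 and -0.06 on the log2 scale (adjusted p = 0.756 and adjusted p = 0.607 from limma).

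**Figure D2:**
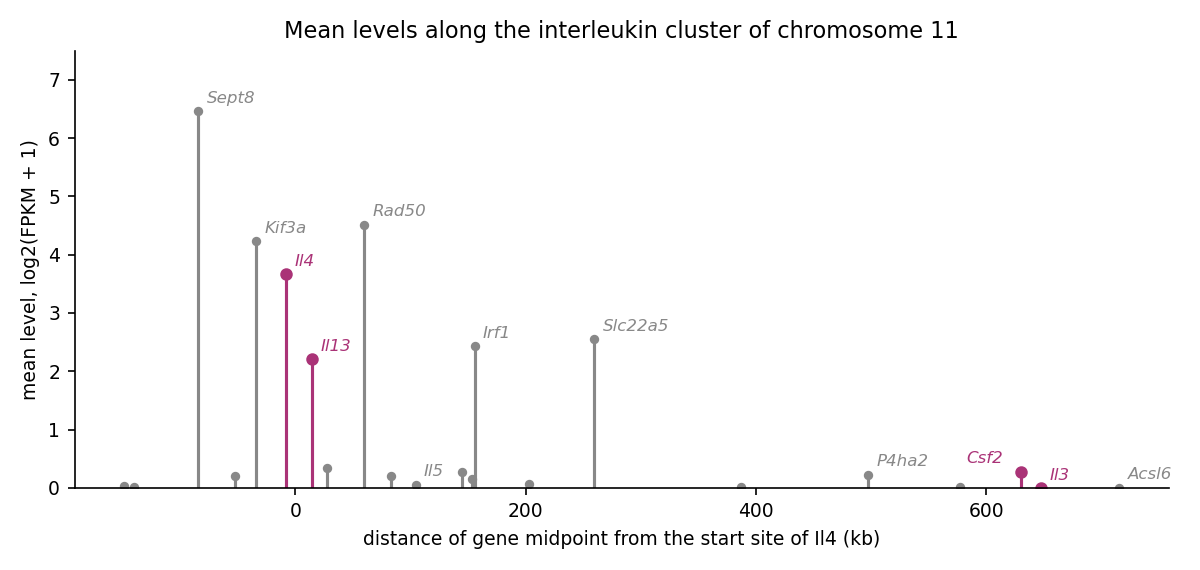
Mean level of the genes with signal, and of Il3, along the interleukin cluster of chromosome 11, as log2(FPKM + 1) over 6 libraries, against the distance in kb of the middle of each gene from the start site of Il4, positive towards higher positions on the chromosome. The factors described here are in purple and other genes in grey. Il4 and Il13 stand among transcribed neighbours, while Csf2 and Il3 at the right stand at or near 0.

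Csf2 and Il3 lie 612568 bases and more from Il13 in the same cluster and 15635 bases from each other. Csf2, at chr11:54247271-54249667 (minus strand), encodes the granulocyte-macrophage growth factor and overlaps only Gm12223, which was listed at 0. It had 0.28, 0.09 and 0 FPKM in the control libraries, from 3, 1 and 0 fragments. In the metformin libraries it had 0.45, 0 and 0.45 FPKM, from 5, 0 and 5 fragments. Both groups held a library at 0. Tested without the filter, Csf2 had an adjusted p = 0.796 (limma over 22809 genes), and no fold change is given for it. Il3, at chr11:54265303-54267277 (minus strand), encodes the factor that is used to grow mast cells from bone marrow. It was listed at 0 in all 6 libraries. At this depth 3 fragments on Il3 correspond to 0.340 to 0.356 FPKM, which is the level that a count of 0 allows in 1 library. P4ha2 and Acsl6, genes on either side of this pair, were also low, with means of 0.17 and 0.00167 FPKM.

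Ccl3 and Ccl4, the chemokines once named macrophage inflammatory proteins, are at chr11:83647844-83649355 (minus strand) and chr11:83662584-83664683 (plus strand), 13228 bases apart. Ccl3 had 0.19 FPKM in all control libraries, and 0, 0.19 and 0.19 FPKM in the metformin libraries. Each value of 0.19 was 2 fragments. Ccl4 had 0.34, 0 and 0 FPKM in the control group and 0.11, 0 and 0 with metformin, which were 3 fragments and 1 fragment in the libraries above 0. All these values were below the limit of 3 fragments, except that of Ccl4 in 1 control library, which reached it. This limit is 0.279 to 0.292 FPKM for Ccl3 and 0.324 to 0.339 for Ccl4. A small difference between the groups was therefore not detectable at this depth. No metformin library held more than 2 fragments of Ccl3 or 1 fragment of Ccl4. Without the filter, their adjusted p-values were adjusted p = 0.796 for Ccl3 and adjusted p = 0.849 for Ccl4 (limma).

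Osm and Il6 belong to the cytokines that signal through the receptor chain Il6st. Osm, oncostatin M, is at chr11:4236420-4241026 (plus strand). It had 21.4, 20.7 and 21.3 FPKM in the control group and 22.6, 20.4 and 22.1 FPKM in the metformin group, from an estimated 646 to 719 fragments. The metformin libraries lay on both sides of the control libraries. The difference was 0.03 on the log2 scale (standard error 0.04, adjusted p = 0.818 from limma). Lif, the cytokine of the same family that the medium also supplied as protein, starts 16530 bases beyond Osm and had 7.23 ± 0.174 FPKM in the control group and 6.59 ± 0.782 (SD, n = 3 each) with metformin (adjusted p = 0.577 from limma).

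Il6 is at chr5:30013114-30019981 (plus strand). It had 8.63, 7.91 and 7.51 FPKM in the control libraries and 8.98, 7.40 and 8.18 FPKM in the metformin libraries, from an estimated 112 to 137 fragments. Both the highest and the lowest of the 6 libraries were metformin libraries. The difference was 0.03 on the log2 scale (standard error 0.07, adjusted p = 0.929 from limma), and its sign depended on 1 library, with -0.016 without the third control library and -0.036 without the first metformin library.

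Tnf is at chr17:35199381-35202007 (minus strand), between Ltb and Lta. It had 7.33, 8.09 and 10.6 FPKM in the control group and 8.39, 8.99 and 7.16 FPKM in the metformin group. These were 161, 183 and 243 fragments against 193, 206 and 162. The third control library was the highest of the 6, while the first control library and the third metformin library were the lowest. The difference was -0.07 on the log2 scale (standard error 0.13, adjusted p = 0.888 from limma). It was 0.072 without the third control library (adjusted p = 0.841 from limma) and 0.016 without the third metformin library. Its relatives in the same locus differed in level, with a mean of 2.08 FPKM for Ltb, which encodes a lymphotoxin chain and lies 3.1 kb away, and 0.095 FPKM for Lta.

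Tgfb1, which acts on growth and differentiation in most tissues, is at chr7:25687002-25705077 (plus strand). It had 79.2, 78.0 and 79.7 FPKM in the control libraries and 86.2, 81.0 and 81.7 FPKM in the metformin libraries, from an estimated 2717 to 3094 fragments. Every library with metformin lay above the highest control, and an exact permutation test (two-sided) gave p = 0.1, the least that groups of 3 allow. The group means were 79.0 ± 0.915 and 82.9 ± 2.83 FPKM (SD, n = 3 each). The difference was 0.07 on the log2 scale (standard error 0.03, 95% confidence interval 0.0018 to 0.14, adjusted p = 0.453 from limma). The relatives Tgfb2 and Tgfb3 had means of 0.225 and 0.0133 FPKM, so that Tgfb1 was the highest of the 3 forms.

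Levels of the receptor genes were then set beside those of the factors, as FPKM, a level per length. For Il4 the chains of the first receptor type were both present, with 76.2 to 83.3 FPKM for Il4ra and 19.2 to 20.9 for Il2rg. Il13ra1, the chain that binds Il13 and pairs with Il4ra, had 0.02 to 0.16 FPKM, and the decoy Il13ra2 had 0 to 0.03. The beta chains were the highest receptor genes of the list. Csf2rb, the common chain for Il3 and Csf2, had 143 to 151 FPKM. Csf2rb2, a beta chain for Il3, had 124 to 132 FPKM. The alpha chains Il3ra and Csf2ra had 0.82 to 1.42 and 0.65 to 0.87 FPKM. Csf2rb and Csf2rb2 are near-identical copies, so their fragments may have been split between them by the counting. Il6st had 1.12 to 1.44 FPKM, and its partners Il6ra, Osmr and Lifr had means of 0.055, 0.0217 and 0.01. Among the receptors of Tnf, Tnfrsf1a had 0.47 to 1.06 FPKM and Tnfrsf1b at most 0.04. The chemokine receptor Ccr1, which binds Ccl3, had at most 0.05 FPKM. For Tgfb1, Tgfbr1 had 20.5 to 21.8 FPKM and Tgfbr2 had 3.43 to 3.99. Hence Il4 and Tgfb1 were found with RNA of both chains of a signalling receptor, whereas Osm, Il6 and Il13 were found with at least 1 specific chain under 0.2 FPKM. In bulk RNA, fewer cells of a type and less RNA per cell cannot be told apart, so these levels do not say whether a factor and its receptor are in the same cells.

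**Figure D3:**
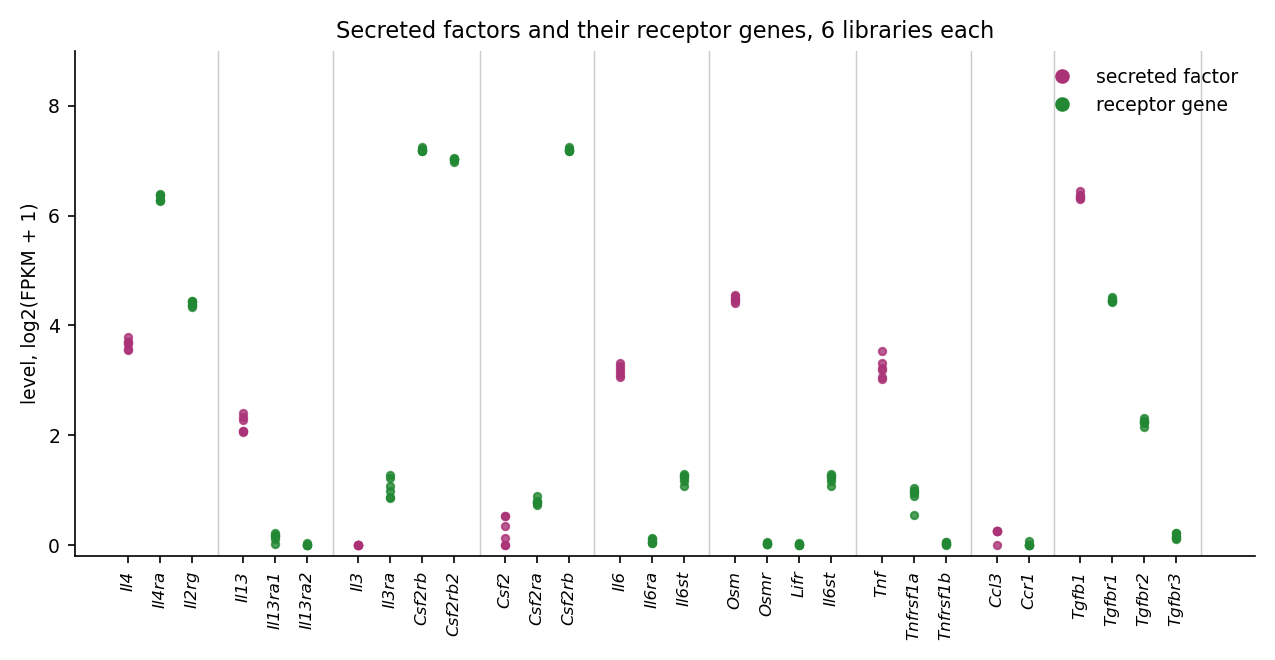
Level as log2(FPKM + 1) of the secreted factors other than Ccl4 (purple) and of receptor genes known for them (green), with 1 point for each of the 6 libraries and grey lines between factors. Il4ra, Csf2rb and Csf2rb2 are high in all libraries, while Il13ra1, Il6ra, Osmr, Lifr and Ccr1 lie at or near 0.

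The question of the comparison was whether metformin treatment changed the RNA of these factors. None of the 6 tested genes had an adjusted p under 0.05 in limma, where 3 of 10661 genes, or 0.0281%, passed. Before adjustment, 1 of the 6, Tgfb1, had a p under 0.05 and was higher with metformin, and none was lower, against 6.03% of all genes higher and 4.81% lower. After rescaling to TPM, which gives all libraries an equal sum, and after quantile normalization, none of the 6 had such a p. Tgfb1 was also the only gene of the 6 whose groups did not overlap, against 8.89% of all tested genes with every metformin library above and 8.1% with every metformin library below. Of the 6 differences, 4 were positive and 2 negative, with a median of 0.03 on the log2 scale, and the median over all tested genes was 0.0041. The 95% confidence intervals reached from -0.37 at Tnf to 0.36 at Il13, while the interval of Osm ran from -0.07 to 0.13.

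**Figure D4:**
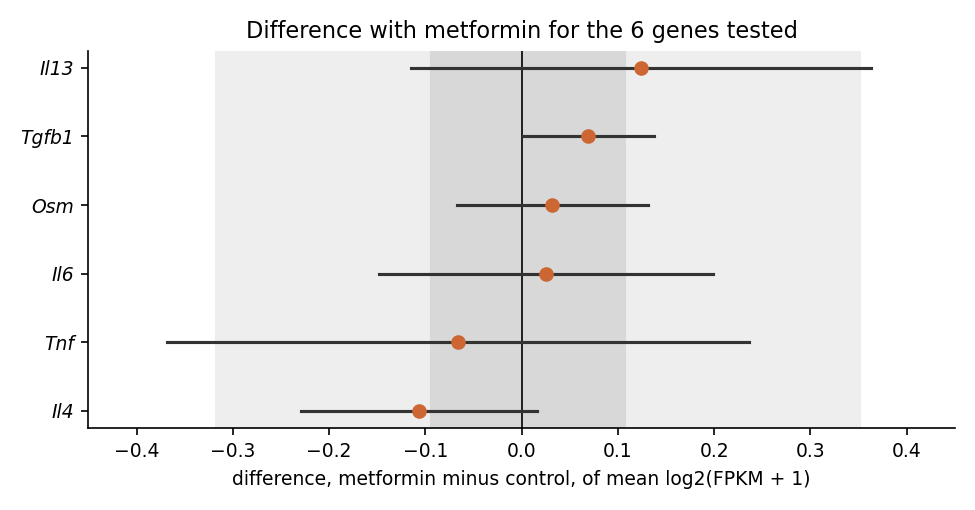
Difference between the metformin and control groups in mean log2(FPKM + 1) for the 6 tested genes (points) with 95% confidence intervals from limma (lines). The dark and light grey bands hold the middle 80% and 98% of all 10661 tested genes, from -0.09 to 0.11 and from -0.32 to 0.35. Tgfb1 alone has an interval that lies above 0, with a lower end of 0.0018.

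The spread between libraries of 1 group was set against the error expected from counting. For Tnf the SD within groups was 16.4% of the mean, against 7.23% expected from counting its fragments, a ratio of 2.26. For the other 5 tested genes this ratio was 0.759 to 1.39, with 13.2% against 12.9% for Il13, 8.49% against 9.06% for Il6, 5.38% against 7.10% for Il4, 4.05% against 3.85% for Osm and 2.60% against 1.87% for Tgfb1. Compared with the 200 tested genes nearest to it in mean level, the spread of Tnf on the log2 scale, 0.205, stood at percentile 96.5, and the median of those genes was 0.0581. Il6 stood at percentile 88.5, Il13 at 84.5, Il4 at 65.5, Osm at 63.5 and Tgfb1 at 53.5 of their own 200 nearest genes. The nearest genes were matched on FPKM and not on fragments, so their counting errors may differ. The third control library carried much of the spread of Tnf, and without it the SD within groups was 10.3% of the mean, a setting chosen after its values were seen.

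**Figure D5:**
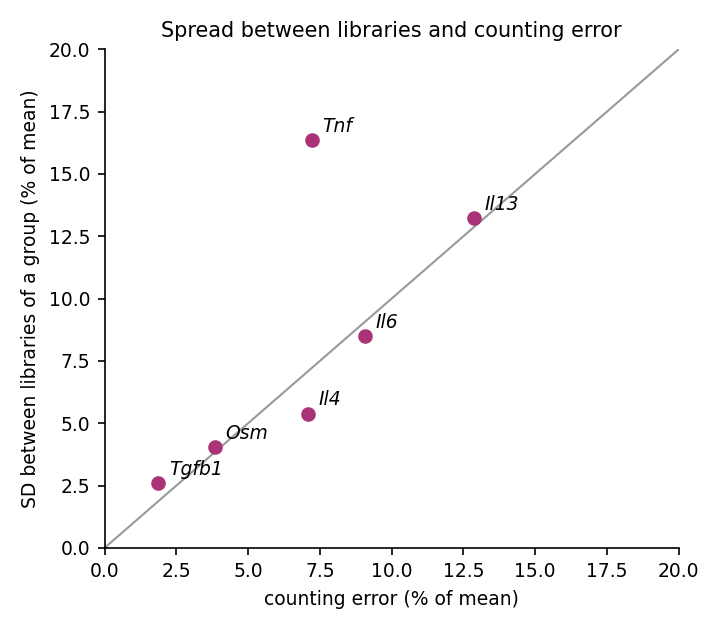
SD between libraries of the same group (vertical axis, % of the mean FPKM) against the error expected from counting fragments (horizontal axis, % of the mean) for the 6 tested genes. The line marks equality. Tnf lies above the line at 16.4% against 7.23%, and the other 5 genes lie near it.

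Other cytokine and chemokine genes known from mast cells and basophils were mostly low. Of 33 listed, 5 were tested, 28 had a mean under 1 FPKM and 6 were listed at 0 in every library, including Il9, Il1b and Ifng. Vegfa, the growth factor of blood vessels, was the highest with 11.9 ± 0.622 FPKM in the control group and 13.5 ± 0.857 (SD, n = 3 each) with metformin, a difference of 0.16 on the log2 scale (adjusted p = 0.388 from limma). It was the only gene of the 5 with an unadjusted p under 0.05, which 6.03% of all tested genes had in this direction, and none was called after adjustment. Csf1, the macrophage growth factor, had 3.58 ± 0.186 and 3.36 ± 0.322 FPKM (SD, n = 3 each). The median difference of the 5 genes was -0.05 on the log2 scale, against 0.0041 over all genes.

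Of the 18 receptor genes, 8 were tested and none was called after adjustment, with a median difference of 0.01. Il4ra was the only one of the 8 with an unadjusted p under 0.05, against 6.03% of all tested genes in this direction. It was also the only one of the 8 whose groups did not overlap, against 8.89%. Its level was 76.9 ± 0.61 FPKM in the control group and 82.3 ± 1.17 (SD, n = 3 each) with metformin, with a difference of 0.10 on the log2 scale (adjusted p = 0.320 from limma). Csf2rb had 147 ± 3.74 and 145 ± 1.07 FPKM (SD, n = 3 each). The next in each direction were Tgfbr1, with a difference of 0.04, and Tgfbr2, with -0.06 (adjusted p = 0.701 and adjusted p = 0.731 from limma).

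Transcription factors and RNA-binding proteins that act on cytokine genes were mostly expressed, with 28 of 32 tested. None was called after adjustment. Before adjustment, 6 of the 28 had a p under 0.05, all higher with metformin, and 23 differences were positive, with a median of 0.05. Over all tested genes, 6.03% were higher and 4.81% lower at this p, 5580 of 10661 differences were positive and the median was 0.0041, so the list is described by these counts only. These 6 were Egr1, Gata2, Nfatc1, Runx1, Zc3h12a and Hnrnpd, and the count was 4 after rescaling to TPM and 5 after quantile normalization. Of the genes with a negative difference, Nfatc3 and Stat3 had the smallest p, with -0.03 each (adjusted p = 0.740 and adjusted p = 0.815 from limma). Egr1, an immediate early factor, had 0.937 ± 0.0577 FPKM in the control group and 1.87 ± 0.241 (SD, n = 3 each) with metformin, a difference of 0.56 on the log2 scale (adjusted p = 0.243 from limma). Gata2, a GATA factor of mast cells and blood progenitors, had 258 ± 5.49 and 275 ± 2.99 FPKM (SD, n = 3 each, adjusted p = 0.320 from limma). The study singled it out with these samples in hand, so these values are not independent evidence of a direction. By qRT-PCR and western blotting, the study also reported more Gata2 mRNA and protein after metformin. Zc3h12a, which encodes a ribonuclease that degrades Il6 and other cytokine transcripts, had 3.28 and 3.77 FPKM on average, with a difference of 0.16 (adjusted p = 0.400 from limma). Hnrnpd and Khsrp, which bind AU-rich transcripts, had overall means of 102 and 60.8 FPKM. The AP-1 genes Fos and Fosb, which stimulation of mast cells induces, had means of 0.193 and 0.0417 FPKM, while Junb and Jund had 19.7 and 38.5.

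Genes that cytokine signalling switches on, many of which damp it in turn, were read as a list of 17, of which 13 were tested. None was called after adjustment, while 6 had an unadjusted p under 0.05, all higher with metformin, and 10 differences were positive. The median was 0.09 on the log2 scale, against 0.0041 over all tested genes, with shares at this p of 6.03% higher and 4.81% lower. After quantile normalization, 4 of the 13 had such a p. The 6 were Dusp2, Bcl2l1, Nfkbie, Nfkbia, Pim2 and Socs1. Dusp2, a phosphatase of MAP kinases, had 6.43 ± 0.352 and 7.38 ± 0.156 FPKM (SD, n = 3 each), a difference of 0.18 (adjusted p = 0.346 from limma). Nfkbia, the inhibitor of NF-kB, had 7.23, 6.30 and 8.53 FPKM in the control libraries and 9.16, 8.89 and 8.41 with metformin. Its groups overlapped at the third control library. Socs1 and Cish, feedback inhibitors of the JAK-STAT pathway, had overall means of 22.1 and 17.2 FPKM. The relatives Socs2 and Socs3 had the smallest p among negative differences, with -0.07 each (adjusted p = 0.676 and adjusted p = 0.784 from limma). Id1, a target of the Tgfb family, and Pim1, a survival kinase, were the highest of the list with means of 60.4 and 40.0 FPKM.

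For the release of the factors, 6 of 13 listed genes were tested, none was called after adjustment, and 2 had an unadjusted p under 0.05, both higher with metformin, against 6.03% of all tested genes higher and 4.81% lower. After quantile normalization this count was 1. The convertase Furin, which cleaves the Tgfb1 precursor, had 50.1 FPKM on average, and Adam17, the enzyme that sheds Tnf from the membrane, had 10.9 ± 0.514 and 10.1 ± 0.699 FPKM (SD, n = 3 each). Nrros, which anchors latent Tgfb1 on myeloid cells, had 54.6 ± 0.45 FPKM in the control group and 57.3 ± 0.74 (SD, n = 3 each) with metformin, and Ltbp4, a binding protein of latent Tgfb1, had 1.96 ± 0.104 and 2.30 ± 0.0611. Their differences were 0.07 and 0.16 on the log2 scale (adjusted p = 0.384 and adjusted p = 0.450 from limma). Lrrc32, the anchor on platelets and regulatory T cells, had a mean of 0.21 FPKM. Srgn, the proteoglycan that holds mediators in granules, had 77.6 ± 4.61 and 75.0 ± 1.28 FPKM (SD, n = 3 each). Cpa3, the mast cell protease above, had 366 ± 16.9 and 338 ± 9.40 FPKM (SD, n = 3 each), a difference of -0.11 (adjusted p = 0.369 from limma). Every metformin library of Cpa3 was below every control library, as was the case for 8.1% of all tested genes.

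The genes with at least 1 FPKM within 100 kb of the 10 factors were compared as well, and none of these 28 had an adjusted p under 0.05 in limma. Of their differences 18 were positive and 10 negative, with a median of 0.03. Before adjustment 5 were higher and 1 lower at a p under 0.05, against 6.03% and 4.81% of all tested genes. Of these 5, Csnk2b, Bag6, Nfkbil1 and RP23-115O3.9 share the single window of Tnf, and Gatsl3 lies near Osm. The groups of these 5 genes, and of Prrc2a near Tnf, did not overlap, with metformin higher. Of all tested genes, 8.89% had groups apart in this direction. The groups of Atp5sl near Tgfb1 were apart in the other direction, as were those of 8.1% of all tested genes. Near Tgfb1, B9d2 lies 0.4 kb away and had a mean of 25.8 FPKM, with a difference of 0.09 (adjusted p = 0.561 from limma). Atp5sl, 61.5 kb from Tgfb1, had 8.61 ± 0.408 FPKM in the control group and 7.74 ± 0.497 (SD, n = 3 each) with metformin, the 1 neighbour that was lower before adjustment, with a difference of -0.14 (adjusted p = 0.439 from limma). Near Tnf, RP23-115O3.9 had the smallest p of all neighbours, with a difference of 0.23 (adjusted p = 0.346 from limma). It overlaps Csnk2b on the other strand, and the strand setting of counting is not given, so these may not be separate signals. Nfkbil1 had a mean of 11.6 FPKM and a difference of 0.16 (adjusted p = 0.423 from limma). H2-D1, a class I antigen presentation gene, had 107 FPKM in the control group and 110 with metformin on average. Near Osm, Gatsl3 had 29.7 ± 0.241 and 31.3 ± 0.760 FPKM (SD, n = 3 each), a difference of 0.07 (adjusted p = 0.425 from limma). Near Il6, Hadha, an enzyme of fatty acid oxidation, and Tyms, an enzyme of thymidylate synthesis, had means of 37.8 and 23.3 FPKM. Within 100 kb of Ccl4, Heatr6 alone passed 1 FPKM, with a mean of 6.44.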

How the data were processed

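RNA-seq of 3 control and 3 metformin libraries was analysed. The authors deposited FPKM values for 55401 genes, rounded to 2 decimals, 1 column per library and with positions of GRCm38. The submitters' processing notes name HISAT2, DESeq2 and mm9, and the counter and its strand setting are not given in the sources used here. The labels name the KAPA Stranded mRNA-Seq kit and the paper's methods a VAHTS kit. Symbols were matched by Ensembl identifier, and 3 newer symbols through RefSeq synonyms.

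log2(FPKM + 1) of the 10661 genes averaging 1 FPKM or more was fitted with limma 3.58.1 (R 4.3.3, eBayes with trend, two-sided, Benjamini-Hochberg, threshold 0.05). Such differences understate changes of low genes. The fit was checked on simulated data. Alternatives were another pseudocount, other filters, rescaling to TPM, quantile normalization, no trend, a replicate block and leaving out each library. The 10 genes, 5 lists of related genes and 10 marker lists were chosen with earlier results of these data known. Named from a list were its 3 highest genes, the 2 with the smallest p in each direction, called genes, and expressed genes within 100 kb of the 10. The setting without 1 control library for the spread of Tnf was chosen after seeing the data. Other genes were named after their values were seen. A receptor gene of the planned list is not reported here.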

Additional observations from a re-analysis of the deposited data

How the results depend on the processing

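The number of the 10 genes with an adjusted p under 0.05 was 0 under all 13 other fits, and 1 (Tgfb1, higher) at an unadjusted p under 0.05, or, with the block, 1 higher (Tgfb1) and 1 lower (Il4). Only the 6 genes above the filter were tested in all 14 fits. Csf2 and Ccl3 were tested in 2 of them, Ccl4 in 1 and Il3 in none. The number over all genes was 3, it was 7 without the filter, 2 with the replicate block, 3 to 4 with each library left out, and 1156 at an unadjusted p under 0.05. Under the block, Il4 had an adjusted p = 0.486, with adjusted p = 0.516 for Tgfb1, adjusted p = 0.642 for Il13, adjusted p = 0.776 for Osm, adjusted p = 0.898 for Il6 and adjusted p = 0.900 for Tnf (limma), so the block changed no call of these genes. Libraries with the same number share only a number, and their deviations from the group means correlated at -0.0317, 0.0181 and 0.0479. Leaving out each library in turn gave log2 differences of -0.036 to 0.088 for Il6 and -0.167 to 0.072 for Tnf, and both changed sign, Il6 to -0.016 without the third control library and Tnf to 0.016 without the third metformin library. The other 4 tested genes kept their direction but not their size, with -0.15 to -0.07 for Il4 (nearest 0 without the third control library), 0.058 to 0.224 for Il13 (without the third and the first metformin library), 0.042 to 0.086 for Tgfb1 (without the first and the second metformin library) and 0.0042 to 0.075 for Osm (likewise). In the order of levels, 0 to 2 genes (Tnf and Il6) changed place. Depth limits Il3, Csf2, Ccl3 and Ccl4, which rest on 0 to 5 fragments in a library.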
